A study of Mus musculus with 24 samples.

Results

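The p53 target genes are 10 genes that the transcription factor p53 is known to switch on: Cdkn1a, Mdm2, Bax, Bbc3, Ccng1, Phlda3, Eda2r, Trp53inp1, Sesn2 and Gdf15. They were chosen by symbol, with earlier results of these data known. Of the 10, 9 were measured by 22 of the 62976 array features, among 20728 genes in all. Bax was not analysed here. Where a gene had several features, the one with the highest mean was used.

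The 24 samples were whole lung of C57BL/6 mice aged 9 to 12 weeks, one array of total RNA each. All mice were given a gapmer by what the labels call transfection. Gapmers are antisense oligonucleotides through which RNase H cuts a chosen RNA. The groups were bleomycin with gapmer DNM3OS-1 (n = 5), bleomycin with gapmer DNM3OS-3 (n = 5), bleomycin with control gapmer (n = 5), PBS with gapmer DNM3OS-1 (n = 3), PBS with gapmer DNM3OS-3 (n = 3) and PBS with control gapmer (n = 3). The gapmers are called gapmer 1 and gapmer 3 here; they target Dnm3os, a long non-coding RNA transcribed antisense to Dnm3. No group lacked a gapmer, so mice without one cannot be set beside these. The labels used here state no dose, no time after bleomycin and no sex. The labels do not say that arrays of a group came from separate animals, so a p-value here reflects variation among arrays that may be partly technical.

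Bleomycin is a glycopeptide that cuts DNA strands and is widely used to injure rodent lung. DNA damage stabilises p53, which then binds paired copies of a short motif near its target genes. Among the targets, Cdkn1a stops the cell cycle, Bax and Bbc3 promote cell death, Mdm2 feeds back on p53 itself, and Sesn2 and Gdf15 are sensors or signals of stress. Several are also driven by other pathways, Sesn2 and Gdf15 by the integrated stress response among them.

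The promoters of the members were searched for the p53 half-site, the 10-base consensus that p53 binds in pairs, on both strands. It was found in 4 of 13 windows of the members (30.8%), Bax included, against 2745 of 32851 windows of all genes (8.36%). Each window runs from 250 bases before to 50 bases after a start site in RefSeq's GRCm38.p6 table. The 3 windows of measured members that hold a match are shown, because 1 belongs to the member with the largest bleomycin difference, 1 to another member that rose, and 1 to a member that did not pass the test. Capitals mark the half-sites, and each sequence is written 5′ to 3′ on the gene's strand.
Cdkn1a: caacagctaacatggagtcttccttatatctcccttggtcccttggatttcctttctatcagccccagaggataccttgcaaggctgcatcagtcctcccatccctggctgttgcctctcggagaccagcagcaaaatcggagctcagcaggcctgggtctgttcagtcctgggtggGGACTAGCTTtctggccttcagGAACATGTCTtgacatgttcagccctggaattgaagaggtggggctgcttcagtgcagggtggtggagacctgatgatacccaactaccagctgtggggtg
Ccng1: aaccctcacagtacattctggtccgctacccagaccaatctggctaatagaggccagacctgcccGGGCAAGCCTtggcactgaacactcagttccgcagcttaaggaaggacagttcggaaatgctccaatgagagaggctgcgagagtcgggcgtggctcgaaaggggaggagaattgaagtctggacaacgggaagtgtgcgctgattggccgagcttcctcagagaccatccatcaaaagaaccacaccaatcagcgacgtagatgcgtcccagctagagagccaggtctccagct
Mdm2: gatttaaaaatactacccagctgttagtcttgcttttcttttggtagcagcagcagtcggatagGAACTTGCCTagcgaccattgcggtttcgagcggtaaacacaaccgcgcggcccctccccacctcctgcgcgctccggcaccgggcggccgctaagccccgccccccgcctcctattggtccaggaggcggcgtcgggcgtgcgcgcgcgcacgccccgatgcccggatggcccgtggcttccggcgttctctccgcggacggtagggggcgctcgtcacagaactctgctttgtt
The Cdkn1a window lies at chr17:29090729-29091028 on the plus strand and holds 2 half-sites, whose first bases are at -73 and -51 from the start site. A second Cdkn1a window, at chr17:29093519-29093818, holds none. The Ccng1 window, at chr11:40755237-40755536 on the minus strand, holds 1 at -185. The Mdm2 window, at chr10:117710709-117711008 on the minus strand, holds 1 at -186. No match was found in the windows listed for Bbc3, Phlda3, Eda2r, Sesn2 and Gdf15, and Trp53inp1 was not in the table. A match is a description of letters, not of binding, and many known p53 elements lie outside such windows.

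All levels are log2 intensities as the authors normalised them, so a difference of 1 is a doubling of signal. Array medians lay between 6.485 and 6.495. Dnm3os was lower with gapmer 1 than with the control gapmer in bleomycin mice (log2 difference -0.72, adjusted p = 0.000186) and lower with gapmer 3 (-0.50, adjusted p = 0.00293). In PBS mice the Dnm3os differences were -0.45 and -0.25, with adjusted p of 0.0882 and 0.577, by limma as throughout. Mean RNA integrity numbers ran over the groups from 9.03, in PBS mice with gapmer 1, to 9.68. Markers of skeletal muscle, which is not part of the lung proper, varied most between arrays of 1 group: the mean of their 11 genes over the PBS control mean ran from -4.85 to 0.55 in PBS mice with gapmer 3.

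Bleomycin lungs with the control gapmer were compared with PBS lungs with the same gapmer. In the bleomycin lungs 6 of the 9 measured members were higher and none was lower at a limma adjusted p under 0.05, with p adjusted by Benjamini-Hochberg over all 20728 genes. Of all 20728 genes, 3003 (14.5%) were called higher, 3998 lower and 33.8% in either direction. The median difference of the 9 members was 0.75, beside -0.02 over all genes. As the members were chosen with earlier results of these data known, setting them beside all genes is a description, not a test. Cdkn1a and Gdf15 differed most. Mdm2 and Bbc3 gave differences near 0. In whole lung, more RNA per cell and more cells of a type that carries the RNA cannot be told apart, here or in the comparisons that follow.

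**Figure D1:**
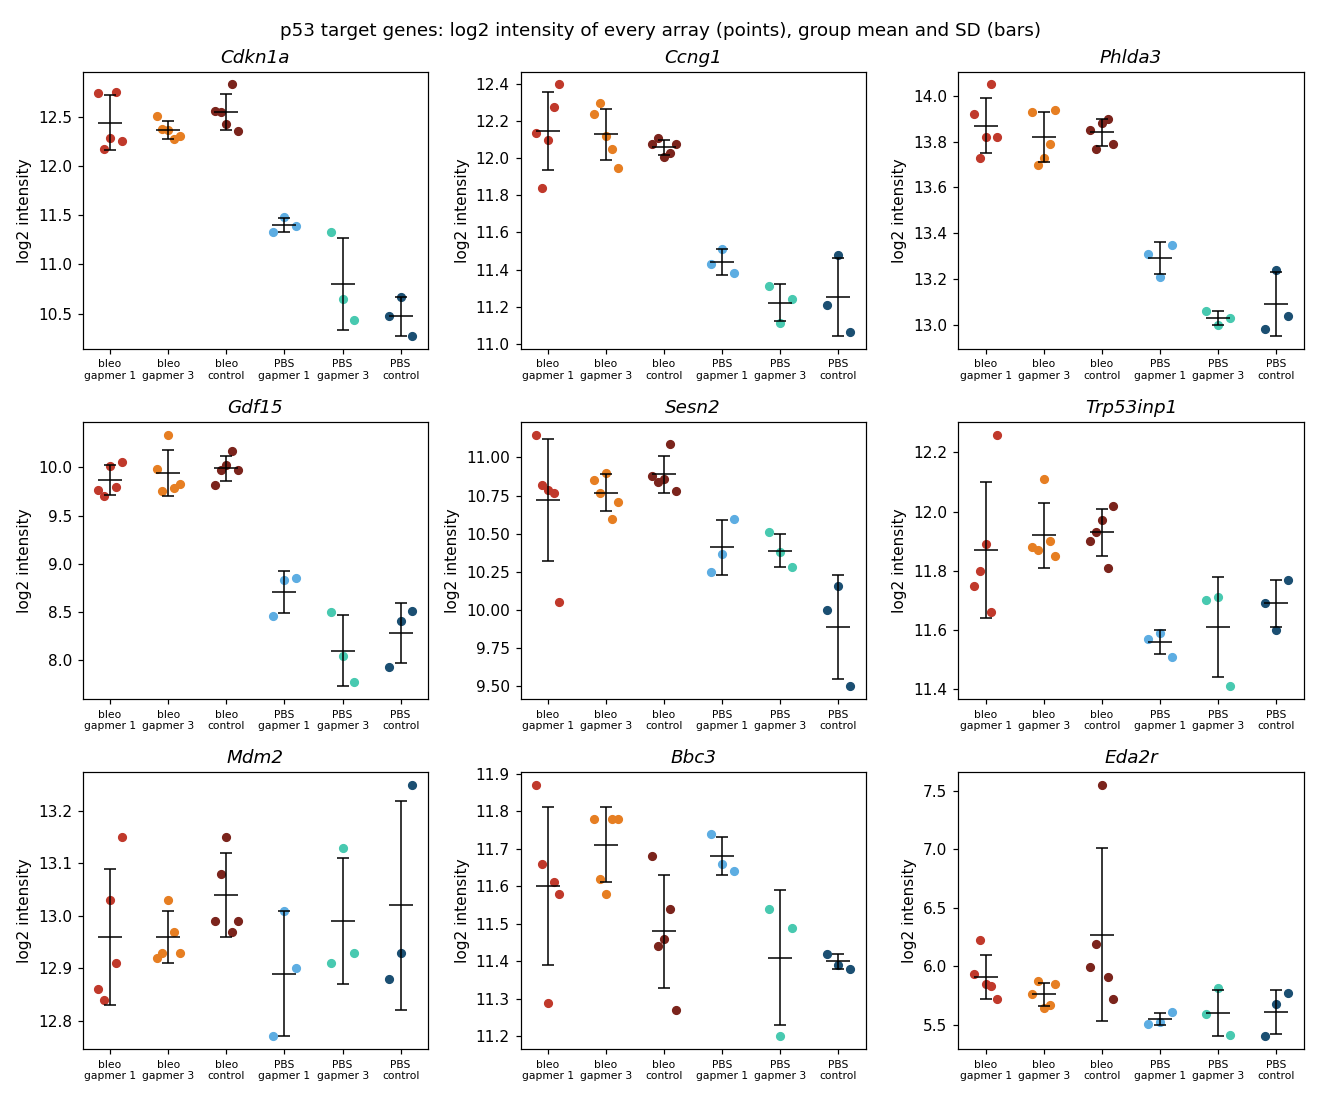
Log2 intensity of the 9 measured members (vertical axes, each panel on its own scale not starting at 0) in the 6 groups (horizontal axes). Points are arrays, horizontal marks are group means and bars are SD (n = 5 in bleomycin groups, n = 3 in PBS groups); Cdkn1a, Ccng1, Phlda3 and Gdf15 of all bleomycin arrays lie above all PBS arrays.

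Cdkn1a encodes p21, which inhibits cyclin-dependent kinases. Its log2 level was 12.56, 12.55, 12.43, 12.83 and 12.36 in bleomycin lungs with the control gapmer, against 10.47, 10.67 and 10.27 in PBS lungs with it. The ranges did not come near each other. The difference was 2.08 ± 0.16 (SE), a 4.22-fold rise (95% interval 3.33 to 5.34, limma adjusted p = 9.17e-09).

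Ccng1 encodes cyclin G1, a p53-induced cyclin-like protein that binds protein phosphatase 2A. It stood at 12.08, 12.11, 12.01, 12.03 and 12.08 in bleomycin lungs, against 11.21, 11.48 and 11.06 in PBS lungs. The 5 bleomycin arrays lay within a narrow band, above the highest PBS array. The rise was 0.81 ± 0.11 (SE), or 1.76-fold (limma adjusted p = 3.66e-06).

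Phlda3, whose product competes with AKT for membrane lipids and so restrains it, rose by nearly as much. Its level was 13.85, 13.77, 13.88, 13.90 and 13.79 in bleomycin lungs, against 12.98, 13.24 and 13.04 in PBS lungs. The groups did not overlap, and the difference was 0.75 ± 0.08 (SE, limma adjusted p = 1.96e-07).

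Gdf15 encodes a secreted stress hormone of the TGF-beta superfamily. It measured 9.82, 9.97, 10.02, 10.17 and 9.97 in bleomycin lungs, against 7.93, 8.41 and 8.51 in PBS lungs. Every bleomycin array was above every PBS array. The rise was 1.71 ± 0.16 (SE), or 3.26-fold (95% interval 2.59 to 4.10, limma adjusted p = 6.48e-08).

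Sesn2 encodes sestrin 2, a leucine sensor that holds back mTORC1. It was 10.88, 10.84, 10.86, 11.09 and 10.78 in bleomycin lungs, against 10.00, 10.16 and 9.50 in PBS lungs. The PBS arrays were spread more widely than the bleomycin arrays, and the groups did not overlap. The rise was 1.00 ± 0.17 (SE, limma adjusted p = 8.64e-05).

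Trp53inp1 encodes a nuclear protein that takes part in p53-dependent death and autophagy. Its level was 11.90, 11.93, 11.97, 11.81 and 12.02 in bleomycin lungs, against 11.69, 11.60 and 11.77 in PBS lungs. Although no array overlapped, the difference of 0.24 ± 0.10 (SE) did not pass the test (limma adjusted p = 0.0785), but did without bleomycin gapmer 1 replicate 5, which enters through the shared estimate of spread (adjusted p = 0.0197). Its other feature, dimmer, gave the same difference of 0.24 with an adjusted p of 0.0150.

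Mdm2, the ubiquitin ligase that marks p53 for destruction, averaged 13.04 ± 0.08 in bleomycin lungs (SD, n = 5) and 13.02 ± 0.20 in PBS lungs (SD, n = 3). The difference was 0.01, with a 95% interval of -0.16 to 0.19. Bbc3 encodes PUMA, a BH3-only protein that triggers mitochondrial cell death, and averaged 11.48 ± 0.15 in bleomycin lungs (SD, n = 5) and 11.40 ± 0.02 in PBS lungs (SD, n = 3). Its difference was 0.08, with a 95% interval of -0.14 to 0.29. For these 2 genes any rise above 1.14-fold for Mdm2 and 1.23-fold for Bbc3 lies outside the interval.

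Eda2r encodes the ectodysplasin A2 receptor, a death-domain member of the TNF receptor family. It was dim, with a mean of 5.83, below the 25th percentile of all gene means (6.11). Its level was 5.99, 6.19, 7.55, 5.91 and 5.72 in bleomycin lungs, against 5.40, 5.68 and 5.77 in PBS lungs. One bleomycin array stood far above the other 4, and another lay inside the PBS range. The difference was 0.66 ± 0.25 (SE, limma adjusted p = 0.0496), and 0.34 without the array at 7.55 (adjusted p = 0.0386). The call was lost in 20 of the 24 fits that left out 1 array, with the largest adjusted p, 0.174, and a difference of 0.55 without PBS control replicate 1. The other Eda2r feature gave 0.37 (adjusted p = 0.0358).

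Cdkn1a had 12 features on the array. Of these, 10 carry the same transcript identifier, and their levels within 1 array had an SD of 0.034 to 0.095. Over those 10 features the bleomycin difference under the control gapmer was 2.01 to 2.12. The other 2 features, with other identifiers and means of 7.41 and 6.65, gave 1.35 and 1.18, so the size of the rise depended on the feature.

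Markers of other cells moved with the same comparison. All 9 measured markers of transitional epithelium rose, a state of alveolar repair in which p53 targets are known to be active. Of 13 macrophage markers 9 rose and 2 fell. The 2, named after their values were seen, were Siglecf and Fabp4, which mark resident alveolar macrophages. Marco, also on that list, was not called lower. Rises were also called for 8 of 9 markers of proliferating cells, 7 of 10 of basal and squamous epithelium, 6 of 10 of fibroblasts and 5 of 8 of lymphocytes, while another lymphocyte marker fell. Falls were called for 8 of 8 endothelial markers, 5 of 9 of lung tissue and 4 of 11 of skeletal muscle, beside 3998 of all 20728 genes. The mean of the transitional markers over the PBS control mean was 0.81 to 0.95 in bleomycin lungs with the control gapmer, against -0.09 to 0.07 in PBS lungs with it. The macrophage mean was 1.33 to 1.42 in those bleomycin lungs, against -0.10 to 0.11 in the PBS lungs. Their part in the rise of the members was not tested.

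The other p53 targets, a list of 28 genes of which 26 were measured, went both ways. In bleomycin lungs with the control gapmer 8 rose and 5 fell, with a median difference of 0.06. Of all 20728 genes 3003 rose and 3998 fell, so the share of these targets that fell was near that over all genes. Psrc1, a microtubule-associated gene of the dividing cell, rose by 2.26. Sfn, or 14-3-3 sigma, a cell-cycle brake of epithelia that is also on the transitional list, rose by 1.63. Pidd1, the scaffold of the PIDDosome, rose by 0.91, Perp, a desmosomal protein, by 0.86, and Tnfrsf10b, a death receptor, by 0.70. Rrm2b, a ribonucleotide reductase subunit, fell by 0.76. The other 4 that fell, named after their values were seen, were Ppm1d (-0.56), Zfp365 (-0.53), Tigar (-0.33) and Xpc (-0.31). Also named after their values were seen, Zmat3, Aen and Plk3 had higher group means in these bleomycin lungs, at 10.24, 13.24 and 10.37. In PBS lungs with the control gapmer these were 9.63, 12.67 and 9.76. Ppm1d is the phosphatase that switches p53 signalling off.

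Among the regulators of p53 2 of 14 measured genes rose and 1 fell. Cdkn2a, whose ARF product frees p53 from Mdm2 and whose p16 product inhibits CDK4 and CDK6, rose by 1.57. Chek2, a kinase of the DNA damage checkpoint, rose by 0.46, and Trp73, a p53 relative, fell by 0.48. Mdm4, which holds p53 inactive, differed by 0.06 and the p53 relative Trp63 by 0.12, and neither passed the test. Trp53 was not analysed here. Of 9 measured CDK inhibitors and senescence genes 4 rose and 1 fell. Lmnb1, a lamin that falls in senescent cells in culture, rose by 1.07, Glb1, the senescence-associated galactosidase, by 0.63 and Cdkn2d by 0.27, while Cdkn1b, which encodes p27, fell by 0.53. Cdkn2a was the fourth to rise.

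Of the BCL2 family 4 of 12 measured genes rose and 1 fell. The effector Bak1 rose by 0.81, the BH3-only Bid by 0.79, Bok by 0.65 and the survival gene Bcl2 by 0.35, while Bmf fell by 0.31. Of the integrated stress response, 6 of 16 rose and 8 fell. Psat1, of serine synthesis, rose by 1.01, the transcription factor Atf3 by 0.82, the cystine carrier Slc7a11 by 0.80 and Shmt2 by 0.61, while Vldlr fell by 0.68 and Atf5 by 0.67.

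The search for nearest profiles covered 10225 genes above the median level. It left out every gene on the lists used here, so no listed p53 target or cell marker could be found. Among the genes searched, those whose 6 group means, each less the PBS control mean, lay closest to a member's were named. For Cdkn1a they were Clec4n and Tnfaip8l1, each with a root mean square difference of 0.20. Nearer neighbours were found for Ccng1 (Shisa4 at 0.03 and Ctsb at 0.05), Phlda3 (Ctsh at 0.04 and Slc66a1 at 0.05), Eda2r (Tubb4a at 0.04 and Ddx39a at 0.05) and Sesn2 (AU040972 at 0.06 and Ext1 at 0.07). For Gdf15 they were Zranb3 at 0.11 and Lhfpl2 at 0.13. These are likenesses over 6 groups only, and the root mean square differences are not scaled to the size of a member's change. The Eda2r means include the bleomycin control array at 7.55, far above the others of its group.

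The next comparison asked whether the gapmers against Dnm3os changed the members in bleomycin lungs. None of the 9 members passed the test for gapmer 1 or for gapmer 3 (limma). With gapmer 1 no member had an unadjusted p under 0.05, and adjusted p ran from 0.349 to 0.854, while 10.5% of all genes were called. With gapmer 3 Bbc3 and Eda2r had an unadjusted p under 0.05, and adjusted p ran from 0.0974 to 0.998, while 13.2% of all genes were called. Of all 20728 genes, 4832 with gapmer 1 and 5313 with gapmer 3 had an unadjusted p under 0.05. The member medians were -0.08 and -0.05, beside 0.02 and 0.01 over all genes.

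**Figure D2:**
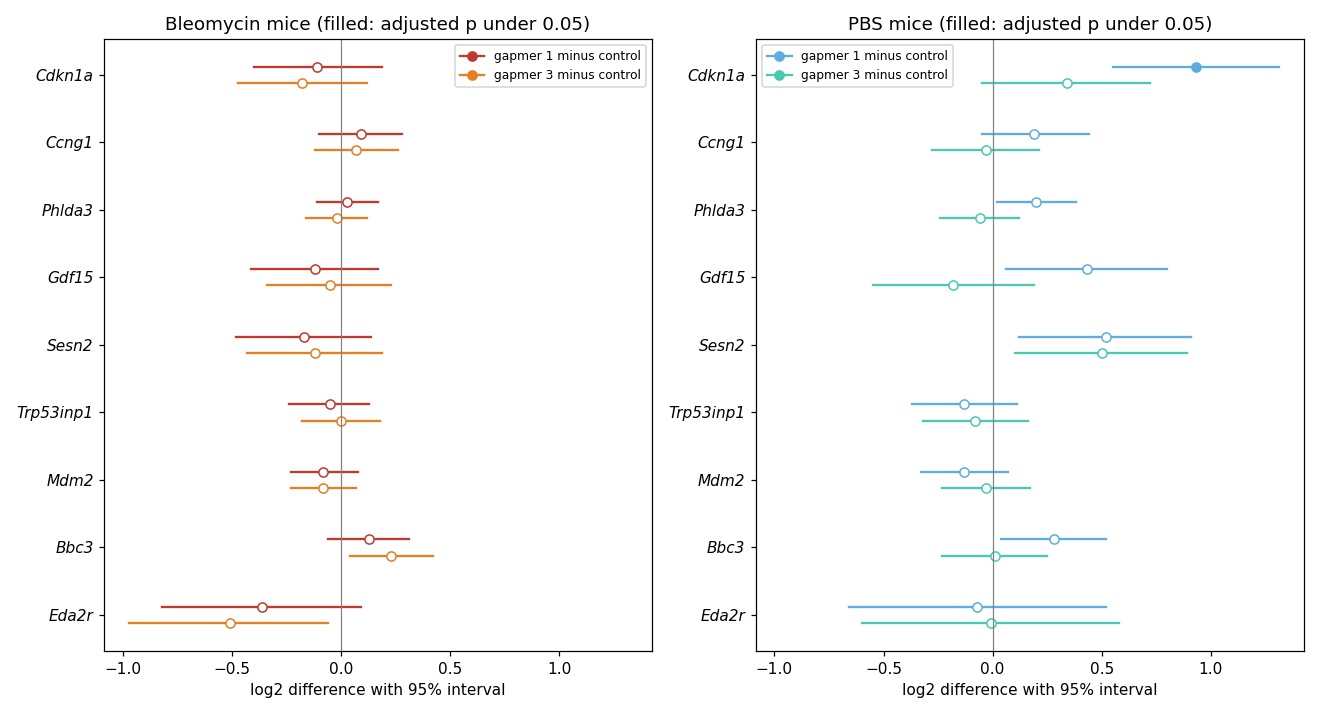
Log2 difference, gapmer 1 or gapmer 3 minus control gapmer, with its 95% interval (horizontal axis) for the 9 members (vertical axis), in bleomycin mice on the left and PBS mice on the right. Filled points passed a limma adjusted p of 0.05; the only filled point is Cdkn1a with gapmer 1 in PBS mice, at 0.93.

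Cdkn1a stood at 12.74, 12.17, 12.29, 12.75 and 12.25 with gapmer 1 and at 12.51, 12.38, 12.37, 12.28 and 12.31 with gapmer 3, against 12.56, 12.55, 12.43, 12.83 and 12.36 with the control gapmer, all in bleomycin lungs. The ranges overlapped. The differences were -0.11 (95% interval -0.40 to 0.19) with gapmer 1 and -0.18 (-0.47 to 0.12) with gapmer 3. Of the 12 Cdkn1a features, the dimmest alone was called, at -0.48 with gapmer 1 (limma adjusted p = 0.0415), while the 10 bright ones gave -0.11 to -0.06.

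Gdf15 was 9.77, 9.70, 10.01, 9.80 and 10.06 with gapmer 1 and 9.98, 9.76, 10.34, 9.79 and 9.83 with gapmer 3, against 9.82, 9.97, 10.02, 10.17 and 9.97 with the control gapmer in bleomycin lungs. Its intervals were -0.41 to 0.17 and -0.34 to 0.23. The 3 groups overlapped throughout. Phlda3 had the tightest limits, from -0.11 to 0.17 with gapmer 1 and from -0.16 to 0.12 with gapmer 3. Over the 8 members other than the dim Eda2r, the intervals ran from -0.48 to 0.31 with gapmer 1 and from -0.47 to 0.42 with gapmer 3. The upper end of the gapmer 3 range belongs to Bbc3, which was 11.78, 11.62, 11.58, 11.78 and 11.78 with gapmer 3, against 11.68, 11.44, 11.46, 11.54 and 11.27 with the control gapmer. Its groups overlapped and its difference was 0.23 (adjusted p = 0.0974).

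Eda2r was 5.93, 6.22, 5.85, 5.83 and 5.72 with gapmer 1 and 5.76, 5.87, 5.64, 5.67 and 5.85 with gapmer 3, against 5.99, 6.19, 7.55, 5.91 and 5.72 with the control gapmer. The control group alone held a high array. The differences were -0.36 and -0.51, with adjusted p of 0.349 and 0.139. Between gapmer 3 and gapmer 1 in bleomycin lungs the differences of the members ran from -0.15 to 0.10, and 0 of 9 were called. At that threshold 0% of all genes were called by limma, although 838 genes had an unadjusted p under 0.05.

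In the same bleomycin lungs some other genes of the pathway did pass the test. With gapmer 1, 1 of the 26 other p53 targets was higher and 4 were lower, and with gapmer 3, 1 was higher and 5 were lower. Tnfrsf10b was lower with both gapmers (-0.29 and -0.33), Pidd1 was called with gapmer 1 (-0.35) and Sfn with gapmer 3 (-0.85). Cdkn2a was 8.49 with gapmer 1 and 8.39 with gapmer 3, against 9.10 with the control gapmer, as group means. Its differences of -0.60 and -0.71 both passed the test (adjusted p = 0.0204 and 0.00576). Trp73 was higher with gapmer 1, by 0.28. Among the BCL2 family 4 of 12 were lower and none was higher with each gapmer, with Bid at -0.33 and -0.45. Lmnb1 was lower with each, at -0.42 and -0.46. Markers of proliferating cells were lower in 5 of 9 cases with each gapmer, with a mean over the PBS control mean of 0.82 to 1.96 with gapmer 1 and 0.92 to 1.43 with gapmer 3, against 1.47 to 1.95 with the control gapmer. Lymphocyte markers were lower in 4 of 8 cases with each, and fibroblast markers in 4 of 10. Basal and squamous markers were lower in 3 of 10 cases with gapmer 1 and in 4 with gapmer 3. Of 9 transitional markers 1 was lower with gapmer 1 and 4 with gapmer 3. Their mean ran from 0.52 to 0.89 and from 0.37 to 0.65, against 0.81 to 0.95 with the control gapmer. Macrophage markers were lower in 3 and 2 of 13 and higher in 1 with each. Endothelial markers were higher in 3 and 4 of 8 cases, and lung tissue markers in 4 and 3 of 9. The part of the markers in these differences was not tested.

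**Figure D3:**
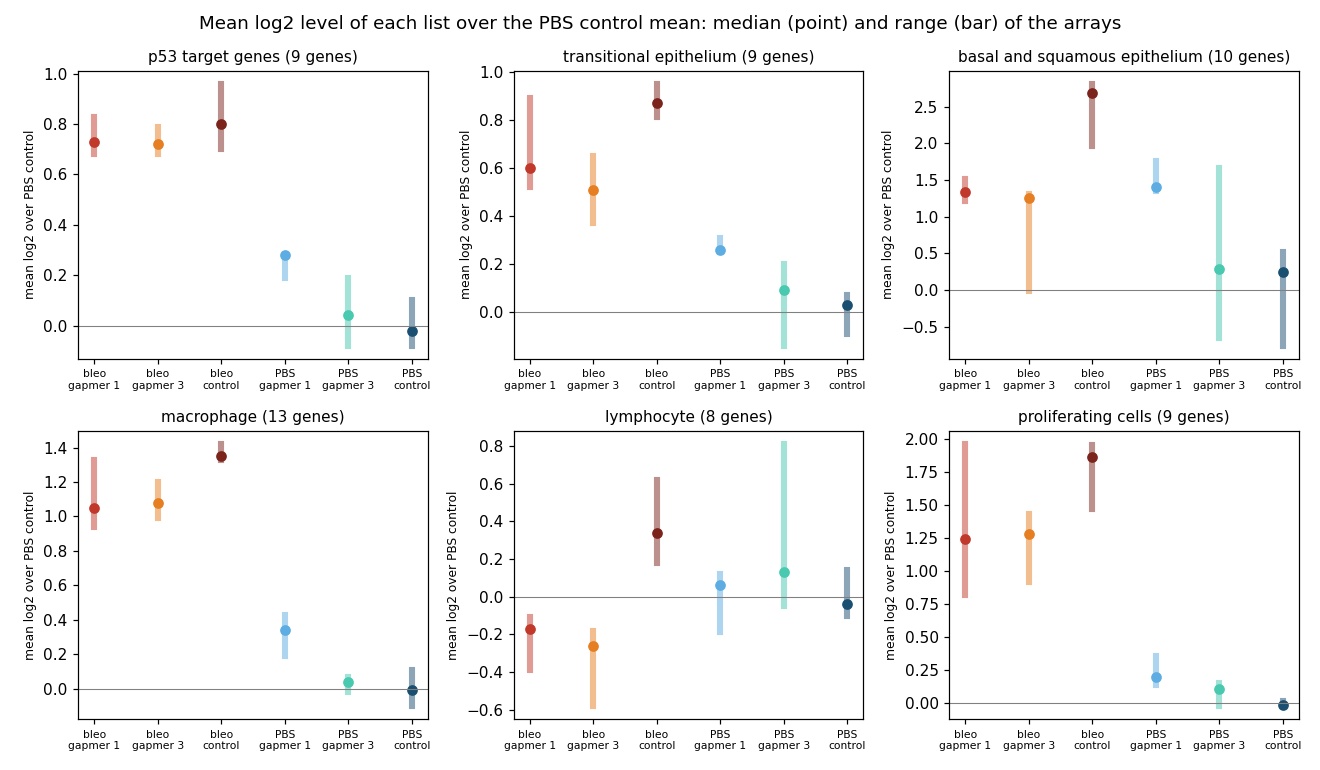
Mean log2 level of each list of genes over the PBS control mean (vertical axes, own scale in each panel) in the 6 groups (horizontal axes). Points are medians and bars the range of the arrays. In bleomycin mice the p53 target genes run from 0.68 to 0.83 with gapmer 1 and from 0.68 to 0.79 with gapmer 3. With the control gapmer they run from 0.70 to 0.96 there. Lymphocyte markers and basal and squamous markers do not overlap between each gapmer and the control gapmer in bleomycin mice. Transitional, macrophage and proliferating markers do not overlap there between gapmer 3 and the control gapmer.

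In PBS lungs, without bleomycin, gapmer 1 was compared with the control gapmer. Cdkn1a was the only member that passed the test, and it was higher with gapmer 1. Its level was 11.33, 11.48 and 11.39 with gapmer 1, against 10.47, 10.67 and 10.27 with the control gapmer. The groups did not overlap, and the 3 gapmer 1 arrays were close together. The difference was 0.93 ± 0.18 (SE), a 1.91-fold rise (95% interval 1.46 to 2.49, limma adjusted p = 0.0223), where 1.11% of all genes were called. All 10 bright Cdkn1a features gave 0.87 to 0.96 and were called, and the 2 dim ones gave 0.35 and 0.33 and were not. The 10 share 1 transcript identifier and the same arrays, so their likeness is not separate evidence. With 3 arrays a group the call was lost when single arrays were left out: at 0.97, 0.89 and 0.94 without PBS gapmer 1 replicates 1, 2 and 3 (adjusted p = 0.0597, 0.0766 and 0.0511), and at 0.93 and 0.83 without PBS control replicates 1 and 3 (adjusted p = 0.0928 and 0.126).

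Of the other 8 members, Sesn2, Gdf15, Bbc3 and Phlda3 had unadjusted p under 0.05 and adjusted p of 0.158 to 0.226. An unadjusted p under 0.05 was found for 3524 of all 20728 genes in this comparison. Sesn2 was 10.25, 10.37 and 10.60 with gapmer 1, against 10.00, 10.16 and 9.50 with the control gapmer in PBS lungs. These groups did not overlap, yet the difference of 0.52 did not pass the test (adjusted p = 0.158). Gdf15 was 8.46, 8.83 and 8.85 with gapmer 1, against 7.93, 8.41 and 8.51 with the control gapmer, a difference of 0.43 (adjusted p = 0.213) between overlapping groups. Bbc3 was 11.74, 11.66 and 11.64 with gapmer 1, against 11.42, 11.39 and 11.38 with the control gapmer, a difference of 0.28 (adjusted p = 0.214) between groups that did not overlap. Trp53inp1 went the other way without overlap, at 11.57, 11.59 and 11.51 with gapmer 1, against 11.69, 11.60 and 11.77. Its difference was -0.13 (limma adjusted p = 0.598). How often groups of 3 arrays fail to overlap was not counted over all genes.

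Of the 26 other p53 targets 2 were called in this comparison, both higher with gapmer 1: Psrc1 by 0.73 (adjusted p = 0.0307) and Sfn by 0.85 (adjusted p = 0.0498). Perp gave 1.27 (adjusted p = 0.0669). Several marker lists also stood apart in the PBS lungs with gapmer 1. The mean over the PBS control mean was 1.35 to 1.76 for basal and squamous markers with gapmer 1, against -0.76 to 0.52 with the control gapmer. It was 0.25 to 0.31 for transitional epithelium with gapmer 1, against -0.09 to 0.07 with the control gapmer, and for macrophages 0.19 to 0.43 against -0.10 to 0.11. Of these lists 1 of 10, 1 of 9 and 2 of 13 genes were called, all higher. Means that did not overlap, with no gene called, were 0.14 to 0.36 for proliferating cells with gapmer 1, against -0.02 to 0.02 with the control gapmer, and 0.11 to 0.17 for fibroblasts, against -0.13 to 0.07. Skeletal muscle was lower, at -1.12 to -0.75 with gapmer 1, against -0.52 to 0.69 with the control gapmer, also with no gene called. How often the means of other lists of genes fail to overlap between groups of 3 arrays was not counted. RNA integrity was lowest in the same group, at 8.5 to 9.4, against 9.1 to 9.5 in PBS control lungs. With the integrity number as a covariate Cdkn1a differed by 0.98 (adjusted p = 0.0177). The part of the marker genes in the Cdkn1a difference was not tested.

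With gapmer 3 no member was called in PBS lungs, where 0.0338% of all genes were. Cdkn1a was 11.33, 10.65 and 10.43 with gapmer 3, against 10.47, 10.67 and 10.27 with the control gapmer. One gapmer 3 array matched the level seen with gapmer 1 and the other 2 lay in the control range. The difference of 0.34 did not pass the test (limma adjusted p = 0.572). Sesn2 alone of the members had an unadjusted p under 0.05, beside 2024 of all 20728 genes. It was 10.51, 10.38 and 10.28 with gapmer 3, against 10.00, 10.16 and 9.50 with the control gapmer. Those groups did not overlap, and the difference was 0.50 (adjusted p = 0.410). Whether gapmer 1 and gapmer 3 differed from each other in PBS lungs was not tested.

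The bleomycin difference was then taken within each gapmer. Under gapmer 1, 4 of 9 members rose (Cdkn1a, Ccng1, Phlda3 and Gdf15), where 9.48% of all genes were called. Under gapmer 3, 5 of 9 rose, the same 4 and Trp53inp1, where 13.9% of all genes were called. The comparisons under the 3 gapmers share no samples, so each is a separate set of 5 bleomycin and 3 PBS arrays.

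**Figure D4:**
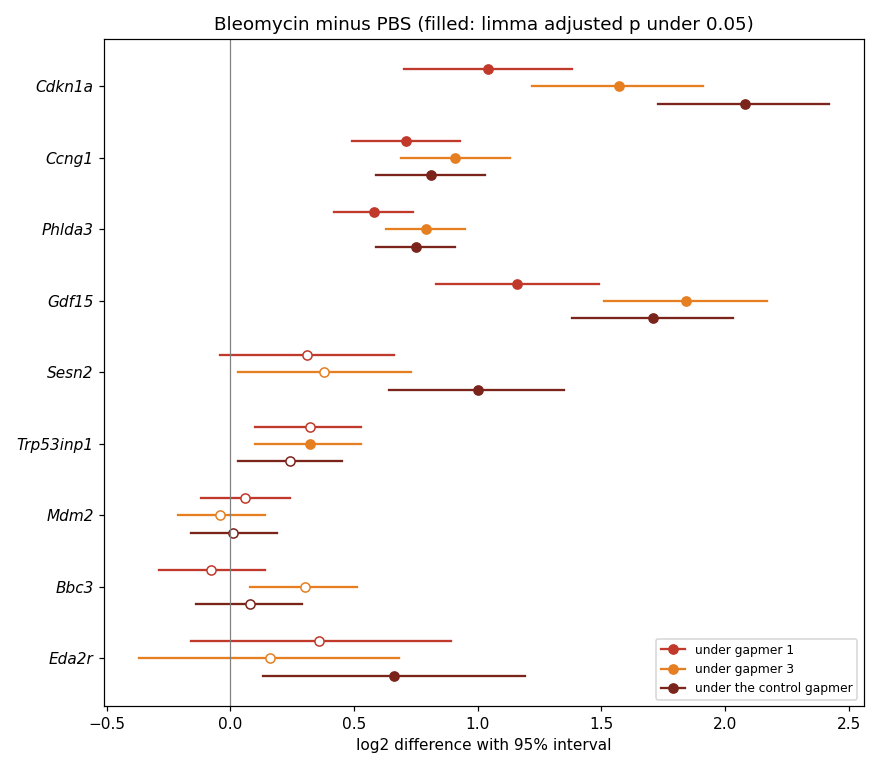
Log2 difference, bleomycin minus PBS, with its 95% interval (horizontal axis) for the 9 members (vertical axis) under gapmer 1, gapmer 3 and the control gapmer. Filled points passed a limma adjusted p of 0.05; Cdkn1a lies at 1.04 under gapmer 1, 1.57 under gapmer 3 and 2.08 under the control gapmer.

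Ccng1 rose by 0.71 under gapmer 1 and by 0.91 under gapmer 3. Its level was 12.14, 11.84, 12.10, 12.28 and 12.40 in bleomycin lungs, against 11.43, 11.51 and 11.38 in PBS lungs, under gapmer 1. Under gapmer 3 it was 12.24, 12.30, 12.12, 12.05 and 11.95 in bleomycin lungs, against 11.31, 11.11 and 11.24 in PBS lungs. Neither pair of groups overlapped. Phlda3 rose by 0.58 and 0.79. It ranged from 13.73 to 14.05 in bleomycin lungs under gapmer 1 and from 13.70 to 13.94 under gapmer 3, against 13.21 to 13.35 and 13.00 to 13.06 in the PBS lungs of the same gapmers. Gdf15 rose by 1.16 and 1.84, with adjusted p of 8.93e-05 and 7.84e-08.

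Cdkn1a rose by 1.04 ± 0.16 (SE) under gapmer 1, or 2.05-fold (limma adjusted p = 0.000317), and by 1.57 ± 0.16 under gapmer 3, or 2.96-fold (adjusted p = 1.10e-06). Sesn2 gave 0.31 under gapmer 1 and 0.38 under gapmer 3, and neither passed the test (adjusted p = 0.302 and 0.158). The gapmer 3 value did pass with array weights (0.36, adjusted p = 0.0453), with only the groups compared (0.38, adjusted p = 0.0184) and without bleomycin gapmer 1 replicate 5 (adjusted p = 0.0446). Under gapmer 1 the bleomycin lungs measured 11.15, 10.82, 10.79, 10.77 and 10.05, against 10.25, 10.37 and 10.60 in PBS lungs. One bleomycin array, at 10.05, lay below all PBS arrays, and without it the Sesn2 difference was 0.48 (adjusted p = 0.0242). Trp53inp1 gave 0.32 under each gapmer, with adjusted p of 0.0549 under gapmer 1 and 0.0410 under gapmer 3, so that the count of 5 against 4 rests on values close to the threshold. Under gapmer 1 it passed with dim genes left out, the mean of features, array weights or its other feature (adjusted p of 0.0121 to 0.0429), and without bleomycin gapmer 1 replicate 4, bleomycin gapmer 3 replicate 3 or PBS gapmer 3 replicate 3 (0.0307 to 0.0473). The call under gapmer 3 was lost without any 1 of bleomycin gapmer 3 replicates 1 to 4 or PBS gapmer 3 replicates 2 and 3, and without the last of these the difference was 0.22 (adjusted p = 0.252). Bbc3 gave -0.08 under gapmer 1 and 0.30 under gapmer 3 (adjusted p = 0.0604), and Mdm2 gave 0.06 and -0.04. The Bbc3 value under gapmer 3 passed in 4 alternatives (adjusted p of 0.0263 to 0.0486) and without bleomycin gapmer 1 replicate 1 or 3, bleomycin gapmer 3 replicate 3 or bleomycin control replicate 5 (0.0303 to 0.0486).

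The difference between these responses was tested as an interaction. Cdkn1a alone among the members passed, for gapmer 1: its bleomycin response was smaller than under the control gapmer by 1.04 ± 0.23 (SE) on the log2 scale (limma adjusted p = 0.0118), where 7.7% of all genes were called. The group means were 12.44 in bleomycin lungs and 11.40 in PBS lungs with gapmer 1, against 12.55 and 10.47 with the control gapmer. The bleomycin means thus lay 0.11 apart, and the PBS means 0.93. The 10 bright Cdkn1a features gave -1.06 to -0.95 and all were called. As they share 1 transcript identifier and the same arrays, they are not separate evidence. The 2 dim features gave -0.65 and -0.81 (limma adjusted p = 0.0794 and 0.044). Leaving out single arrays gave -1.14 to -0.94. Sesn2 gave -0.69 (adjusted p = 0.0801), or -0.80 without bleomycin gapmer 1 replicate 1 and -0.82 without PBS control replicate 2 (adjusted p = 0.0356 and 0.0438), and Gdf15 -0.55 (adjusted p = 0.137). For gapmer 3 no member passed, where 3.09% of all genes were called. Sesn2 was at -0.62 (adjusted p = 0.160) and Cdkn1a at -0.51 (adjusted p = 0.240), both with unadjusted p under 0.05. An unadjusted p under 0.05 was found there for 3825 of all 20728 genes. That Cdkn1a value was -0.25 without PBS gapmer 3 replicate 1 (adjusted p = 0.634) and -0.70 without replicate 3 of that group (adjusted p = 0.110). Under the same gapmer 1 interaction 6 of 10 basal and squamous markers and 5 of 13 macrophage markers were called, all negative. Also negative were 4 of 10 fibroblast, 3 of 9 proliferating, 2 of 9 transitional and 2 of 8 lymphocyte markers. Positive calls were 2 of 8 endothelial and 1 of 11 skeletal muscle markers, and 0 of 9 lung tissue markers were called. Over all 20728 genes 1030 were positive and 567 negative. The part of these markers in the Cdkn1a value was not tested.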

How the data were processed

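The 24 arrays were 1-colour Agilent arrays of mouse whole-lung total RNA. The authors deposited log2 values for each feature, already normalised between arrays; limma is named without a version, per the submitters' processing notes, and how the background was corrected is not stated there. The deposited values ran from 5.03 to 18.25, and no pair of arrays was identical. Scanner flags were not used here, so no probe is called detected or saturated. Precision is limited by how many arrays a group has.

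The platform annotation gives 1 gene symbol for 31465 of 62976 features and none for 31511, and none has several. Symbols were updated through RefSeq's GRCm38.p6 table: 18550 were current, 1969 were matched by accession, 250 by synonym and 5 were kept as given. For the 6176 genes with several features the feature with the highest mean was used, which left 20728 genes.

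A linear model with 1 mean for each of the 6 groups was fitted over all 24 arrays (limma 3.58.1 in R 4.3.3, 18 residual degrees of freedom), with empirical Bayes variances, 95% intervals and Benjamini-Hochberg adjustment over all genes at 0.05. The code was tested on simulated data. Tables were made with Python 3.11.15 and pandas 2.3.3.

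The members, the other gene lists and the cell markers were chosen with earlier results of these data known. All members are named. Of each pathway list up to 6 genes with the largest difference among those called in bleomycin against PBS under the control gapmer are named, with Mdm4, Cdkn2a, Trp63 and Trp73 always, and Dnm3os as a check of the labels. For each member called there the 2 genes nearest in profile are named, among genes above the median level that are on no list. Bax and Trp53 are not analysed here.

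Replicate numbers come from the sample titles. The labels state no pairing. In PBS lungs with gapmer 1 and the control gapmer, deviations of same-numbered samples from their group means correlated at 0.103 to 0.189 over 3 pairs. In every other comparison at least 1 pair was at or under 0.055, although a single pair reached 0.42. Pairs of unlike number were not set beside these, so whether the numbers pair samples is not known. The main fit used no pairing. The alternatives tried were quantile normalisation, median centring, a filter on dim genes, the mean of all features, array weights, a trend of variance with level, a replicate block, RNA integrity as a covariate, a fit on the compared groups alone, single other features and leaving out each array.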

Additional observations from a re-analysis of the deposited data

Results flagged for a closer look

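Eda2r in bleomycin lungs with the control gapmer had 1 array at 7.55 far from the other 4, whose levels were 5.72 to 6.19. The gap was 0.742 of the group's range.

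Trp53inp1 in bleomycin lungs with gapmer 3 had 1 array at 12.11, above the other 4 at 11.85 to 11.90. The gap was 0.815 of the group's range. In all 27 sets of 5 arrays were examined in this way, and chance sets apart about 1 in 20.

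The bleomycin response of Cdkn1a differed between gapmer 1 and the control gapmer by -1.04 (limma adjusted p = 0.0118). Each gapmer 1 array in PBS lungs was above each control array there, and the bleomycin arrays overlapped.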

How the results depend on the processing

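The bleomycin rises of Cdkn1a, Ccng1, Phlda3 and Gdf15 kept their direction and call under every alternative run, under each of the 3 gapmers, except that the dimmest Cdkn1a feature gave 0.37 under gapmer 1 and was not called (adjusted p = 0.205). The dimmer feature with a mean of 7.41 gave -0.65 in the gapmer 1 interaction of Cdkn1a (adjusted p = 0.0794). The number of members called for gapmer 3 against the control gapmer in bleomycin mice was 1 with the mean of all features (Eda2r) and 1 with array weights (Bbc3), against 0; the genes called over all 20728 were 2771 and 5121, against 2726. The number called in the gapmer 1 interaction was 2 with array weights, where Gdf15 passed at -0.72 (adjusted p = 0.0318) and 3251 genes were called, against 1597, and 1 to 2 on leaving out single arrays, the second being Sesn2. For gapmer 1 against the control gapmer in PBS mice it was 0 to 1 on leaving out single arrays. The Eda2r call in bleomycin against PBS under the control gapmer was lost with quantile normalisation (0.64, adjusted p = 0.0567), median centring (0.64, 0.0588) and only the groups compared (0.66, 0.202), and its value ran from 0.34 to 0.80 on leaving out single arrays; the filter on dim genes removes Eda2r. Trp53inp1 in bleomycin against PBS passed under the control gapmer with the mean of features (adjusted p = 0.0115), array weights (0.0486), only the groups compared (0.0353) and its other feature (0.0150). Under gapmer 3 its call was lost with median centring (0.30, adjusted p = 0.0516) and only the groups compared (0.32, 0.0512). Bbc3 under gapmer 3 passed with dim genes left out (adjusted p = 0.0471), array weights (0.0263) and the integrity covariate (0.0486), beside the replicate block. The causes were not tested.

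With replicate number as a block shared by all 6 groups, gapmer 1 against the control gapmer in PBS mice gave Cdkn1a 0.93 (limma adjusted p = 0.0142), the same call. As no pairing is known, this fit is an alternative like the others. In the other comparisons, too, the samples share only a number. There the replicate block moved 2 calls, both of bleomycin against PBS under gapmer 3: Bbc3 passed at 0.30 (adjusted p = 0.0435) and Trp53inp1 did not at 0.31 (adjusted p = 0.0527). It changed no other call of a member.

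The differences that changed sign had not passed the test on either side. Under median centring these were Mdm2 in bleomycin against PBS under the control gapmer (-0.005), Trp53inp1 with gapmer 3 in bleomycin mice (0.01), Eda2r with gapmer 3 in PBS mice (0.004) and Mdm2 in gapmer 3 against gapmer 1 (0.02). Under quantile normalisation Phlda3 with gapmer 1 in bleomycin mice gave -0.005 and Mdm2 in gapmer 3 against gapmer 1 gave 0.002. Array weights gave Phlda3 with gapmer 1 -0.004, Mdm2 in the gapmer 1 interaction -0.05, and Mdm2 0.02, Ccng1 0.01 and Sesn2 -0.08 in gapmer 3 against gapmer 1. In PBS mice with gapmer 3 the integrity covariate gave Bbc3 -0.03 and Eda2r 0.15, and Eda2r was 0.02 as a mean of features and 0.05 by its other feature. In gapmer 3 against gapmer 1 single other features gave Cdkn1a 0.13 and 0.07 and Eda2r 0.07.

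Leaving out single arrays also moved values across 0. In bleomycin against PBS Mdm2 ran from -0.06 to 0.13 under the control gapmer and from -0.08 to 0.04 under gapmer 3, and Bbc3 from -0.14 to 0.002 under gapmer 1. In bleomycin mice Phlda3 ran from -0.02 to 0.06 and Trp53inp1 from -0.15 to 0.001 with gapmer 1, and with gapmer 3 from -0.05 to 0.01 and from -0.05 to 0.02. In PBS mice Eda2r with gapmer 1 ran from -0.18 to 0.01. With gapmer 3 there, Mdm2 ran from -0.10 to 0.08, Bbc3 from -0.05 to 0.11, Ccng1 from -0.13 to 0.09, Phlda3 from -0.11 to 0.02, Eda2r from -0.12 to 0.09 and Trp53inp1 from -0.13 to 0.02. In the gapmer 1 interaction Mdm2 ran from -0.06 to 0.12, Eda2r from -0.44 to 0.02 and Trp53inp1 from -0.02 to 0.13. In the gapmer 3 interaction Mdm2 ran from -0.16 to 0.02, Ccng1 from -0.02 to 0.19, Phlda3 from -0.04 to 0.09, Trp53inp1 from -0.02 to 0.13 and Gdf15 from -0.04 to 0.33. In gapmer 3 against gapmer 1 Cdkn1a ran from -0.13 to 0.01, Mdm2 from -0.03 to 0.05, Ccng1 from -0.10 to 0.04, Trp53inp1 from -0.001 to 0.15, Sesn2 from -0.12 to 0.16 and Gdf15 from -0.03 to 0.12.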
